A study of Mus musculus with 8 samples.

Results

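The genes described here are the subunits of the MCM helicase and the factors that license replication origins, measured by RNA-seq in the dorsal cortex of mouse embryos at E15.5. The 10 genes are Mcm2, Mcm3, Mcm4, Mcm5, Mcm6, Mcm7, Mcm10, Cdt1, Cdc6 and Gmnn, found by symbol among the 23284 gene symbols of the count files, and all 10 were among the 14696 genes that passed the filter on low counts. The members were chosen by measured values: Mcm6 had been listed by the study as changed between these same libraries, and the other 9 were taken as its partners in the complex and the pathway. The differences between genotypes given below are therefore a description of these 8 libraries and not an independent test. The study compared 4 libraries labelled WT with 4 labelled ErbB4 KO (genotype ErbB4 -/-), all from untreated C57BL/6 embryos of the same age, to find genes that respond to loss of ErbB4. ErbB4 is a receptor tyrosine kinase for neuregulins, and ErbB4 knockout mice die of heart defects before birth unless a transgene under the α-MHC promoter supplies the receptor in the heart, so such mice keep ErbB4 there. The lines were bred as separate homozygous colonies, the meninges and ganglionic eminences were removed, and the labels do not say whether replicates came from separate litters, so a p-value covers only the spread between these samples.

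Before a cell copies its DNA, the origin recognition complex, CDC6 and CDT1 load rings of MCM2 to MCM7 onto origins, which is called licensing, and these rings later become the core of the helicase that opens the DNA. Geminin, the product of Gmnn, binds CDT1 and prevents a second loading in the same cycle, and MCM10 joins the helicase when the origin fires. Licensing genes are transcribed in dividing cells and are well known targets of E2F factors, and in the dorsal cortex of this age the dividing cells are mainly radial glia and intermediate progenitors, while neurons have left the cycle. RNA was measured from whole tissue, so fewer dividing cells and less RNA per dividing cell cannot be told apart.

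The libraries held 28205703 to 48871480 counts, and the totals did not differ detectably between the genotypes (exact two-sided permutation test over 70 assignments, p = 0.257, where the smallest possible p is 0.0286). Erbb4 itself was at 8.99, 19.9, 25.3 and 19.2 CPM (counts scaled to the library total, after TMM normalization) in WT 1 to 4 and at 20.9, 24.6, 20.7 and 23.5 CPM in ErbB4 KO 1 to 4. It was not lower in the libraries labelled ErbB4 KO (log2 fold change 0.28, SE 0.23, edgeR adjusted p = 0.812), and a count per gene does not show which exons were read, so the genotype is given as labelled throughout. Xist was at 983 to 1687 CPM in WT 1 to 3 and at 2.70 to 3.82 CPM in WT 4 and all libraries labelled ErbB4 KO, where Ddx3y of the Y chromosome was at 76.4 to 80.9 CPM, so sex and genotype cannot be told apart except through WT 4. WT 1 stood apart from the other libraries, at -38.9 on the first principal component against -6.07 or more, and its values fell with transcript length (Spearman rho -0.58 across 14253 genes, against 0.04 to 0.22 in the others). The dorsal cortex markers Emx1, Neurod6, Tbr1, Lhx2 and Eomes were present in every library, with Emx1 at 59.6 to 79.4 CPM.

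In the GENCODE annotation of NCBIM37 (mm9), the build to which the reads were mapped, the subunit genes lie on 5 chromosomes. Mcm3 (chr1:20793055-20810359) and Mcm6 (chr1:130228168-130256233) share chromosome 1 with Erbb4, at 47.3 and 61.1 Mb from it. Mcm2 lies at chr6:88833469-88848774, Mcm4 at chr16:15623990-15637493 and Mcm7 at chr5:138605811-138613650, all 3 on the minus strand like Mcm3 and Mcm6, and Mcm5 at chr8:77633427-77652338 on the plus strand. Of the other licensing genes, Cdt1 (chr8:125091915-125097028) and Cdc6 (chr11:98769115-98785254) are on the plus strand, and Mcm10 (chr2:4910760-4933837) and Gmnn (chr13:24843714-24853792) on the minus strand. The exons of Mcm7 overlap those of Ap4m1 and Cops6 on the opposite strand and Mir25 and Mir93 on the same strand over 557 nucleotides, 12.6% of its merged exons, and because the libraries do not keep the strand, a part of its count is uncertain. No exon overlap was found for the other members.

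The promoters are shown because the licensing genes are known as a set that E2F factors bind. Promoter sequences, from 250 bases before to 50 after the start, were taken from RefSeq (GRCm38.p6) and matched for 8 of the 10 members, not for Mcm4 or Gmnn. They were searched on both strands for an E2F motif, written as TTTCCCGC, TTTCGCGC, TTTGCCGC or TTTGGCGC. The promoter of Mcm6 (chr1:128359656-128359955, minus strand), of Mcm5 (chr8:75109259-75109558, plus strand), of Mcm3 (chr1:20820263-20820562, minus strand) and the first of 2 promoters of Mcm7 (chr5:138171834-138172133, minus strand) read as follows on the gene's strand, 5′ to 3′, with E2F matches in capitals.
Mcm6: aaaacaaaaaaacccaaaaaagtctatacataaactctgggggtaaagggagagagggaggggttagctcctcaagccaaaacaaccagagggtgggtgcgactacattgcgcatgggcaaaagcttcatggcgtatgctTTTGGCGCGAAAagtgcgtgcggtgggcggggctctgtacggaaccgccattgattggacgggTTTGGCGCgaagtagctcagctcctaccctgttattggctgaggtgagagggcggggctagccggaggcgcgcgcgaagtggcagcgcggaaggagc
Mcm5: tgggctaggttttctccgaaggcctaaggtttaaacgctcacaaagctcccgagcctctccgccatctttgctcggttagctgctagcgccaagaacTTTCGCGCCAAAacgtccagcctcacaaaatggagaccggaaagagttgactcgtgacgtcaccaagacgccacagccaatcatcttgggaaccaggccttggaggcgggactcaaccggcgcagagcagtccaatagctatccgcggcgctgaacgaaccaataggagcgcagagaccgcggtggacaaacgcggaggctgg
Mcm3: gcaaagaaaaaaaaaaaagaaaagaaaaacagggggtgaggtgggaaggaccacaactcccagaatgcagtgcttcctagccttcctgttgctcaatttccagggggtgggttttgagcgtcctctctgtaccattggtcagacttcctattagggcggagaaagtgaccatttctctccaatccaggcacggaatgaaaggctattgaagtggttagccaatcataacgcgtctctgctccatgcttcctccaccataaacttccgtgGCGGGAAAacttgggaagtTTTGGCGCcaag
Mcm7: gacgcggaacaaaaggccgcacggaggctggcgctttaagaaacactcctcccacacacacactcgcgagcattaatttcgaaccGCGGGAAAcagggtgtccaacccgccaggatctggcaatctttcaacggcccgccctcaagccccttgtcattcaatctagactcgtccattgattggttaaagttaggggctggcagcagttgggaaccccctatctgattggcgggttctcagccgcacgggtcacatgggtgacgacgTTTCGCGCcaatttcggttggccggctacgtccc

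Mcm6 held a pair of overlapping E2F matches on opposite strands, starting 110 and 106 bases before the start, and 1 more at 47 bases before it. Mcm5 held a similar overlapping pair starting 153 and 149 bases before the start. The matches of Mcm3 lay after the start, at bases 20 and 39, and those of Mcm7 on either side, starting 165 bases before it and at base 17 after it. Cdt1 had 1 match, at base 33 after the start, and Cdc6 had 1, at 138 bases before it. Thus 6 of the 8 members with a promoter held the motif within the window, and Mcm2, Mcm10 and the second promoter of Mcm7 did not. The window of Mcm10 ended in TTTGGCG, so a match crossing its edge could not be seen. Of all 32851 promoters searched, 744 (2.26%) held the motif. The CCAAT box (CCAAT, both strands), to which NF-Y binds, was found in Mcm2, Mcm3, Mcm5, Mcm6, Mcm7 and Mcm10, 6 of 8 members, and in 37.4% of all promoters, and in Mcm7 one match shares a base with an E2F match. The CHR element (TTTGAA, both strands), known from genes expressed late in the cycle, was found in Mcm2 alone among the 8, and in 17.9% of all promoters. These are matches of letters and not measured binding.

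The level of each member per length was compared as CPM per kilobase of its longest transcript, in the WT libraries. These include WT 1, whose values fell with transcript length, which limits the comparison of short with long genes. Mcm7 was highest, at 48.5 ± 4.99 (SD, n = 4), followed by Mcm2 at 34.1 ± 2.93, Mcm3 at 32.1 ± 3.20, Mcm6 at 31.9 ± 5.44 and Mcm5 at 31.4 ± 2.42 CPM per kb. These last 4 subunits did not differ from each other beyond their spread. Mcm4 was lowest of the subunits at 23.5 ± 1.64 CPM per kb. Its range, 21.4 to 25.3, overlapped that of Gmnn (18.9 ± 4.38) and of Mcm6 (24.4 to 36.6) but not that of Mcm5. The loading factor gene Cdt1 was at 12.2 ± 0.649 CPM per kb, Mcm10 at 4.62 ± 0.348 and Cdc6 at 3.53 ± 0.475, in ranges that did not overlap. With the merged exons of all transcripts as the length, Mcm7 was at 32.5 CPM per kb, within the spread of Mcm2, and Mcm10 at 2.92 came below Cdc6 at 3.24. In the libraries labelled ErbB4 KO, Mcm6 was at 21.2 ± 2.09 CPM per kb of the longest transcript, next to Mcm4 at 22.0 ± 2.12 and below the other 4 subunits, which were at 27.7 to 44.8.

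All 10 licensing genes were on average lower in the libraries labelled ErbB4 KO than in WT, by 6.30% (Mcm4) to 33.6% (Mcm6) of the WT mean. A log2 fold change below 0 was found for 50.8% of all tested genes. The median log2 fold change of the members was -0.21, against -0.0022 for all tested genes. None of the 10 passed an adjusted p under 0.05 in edgeR, which 4 of 14696 genes did (0.0272%), nor in limma-voom, and 1 of 10, Mcm6, passed in DESeq2, which called 23 of 16682 genes (0.138%). At an unadjusted p under 0.05, 4 members were lower in edgeR (Mcm2, Mcm6, Mcm10 and Cdt1) and 5 each in DESeq2 and limma-voom. By this rule 2.52% of all tested genes were lower in edgeR, 2.21% in DESeq2 and 2.45% in limma-voom. With Xist as a covariate, 1 of 10 passed it, as did 0.776% of all tested genes. With the replicate number as a block, 6 of 10 passed it, as did 3.01% of all tested genes.

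**Figure D1:**
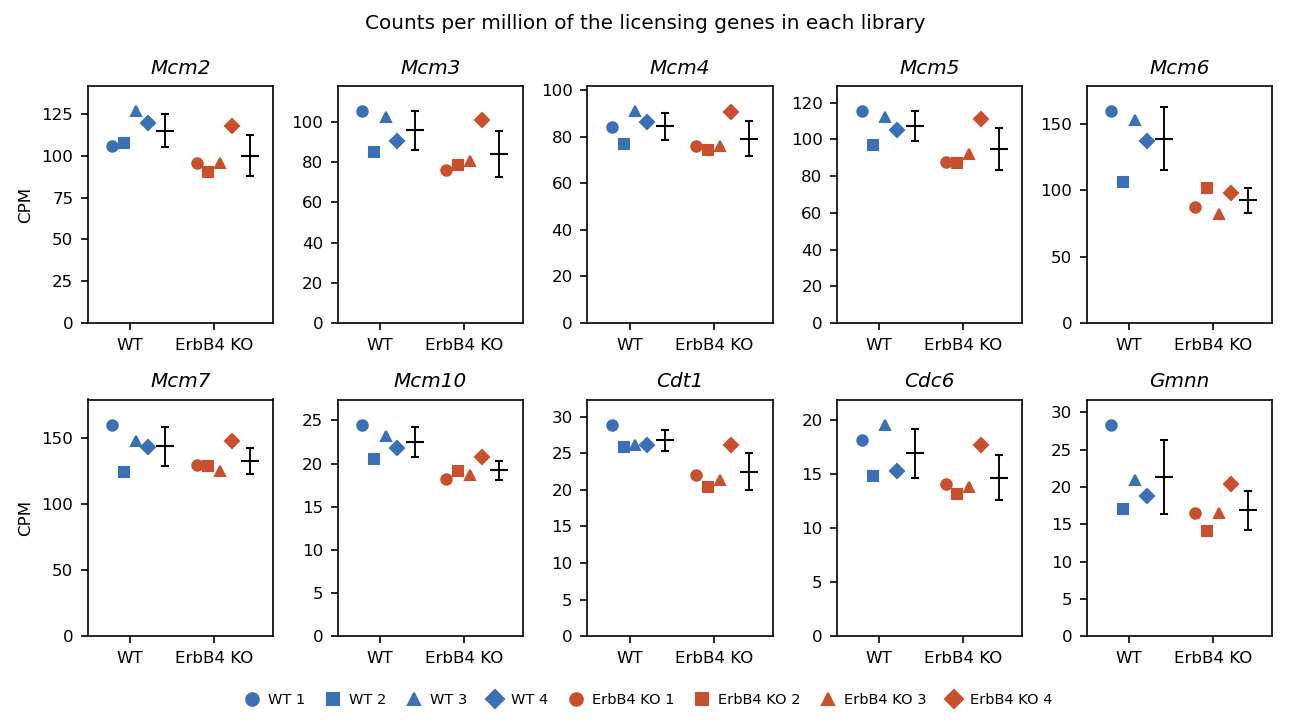
Level of each licensing gene (CPM, linear axis from 0) in the 4 WT libraries (blue) and the 4 libraries labelled ErbB4 KO (red), with the marker shape giving the replicate number and the bars the mean ± SD. In Mcm6 every library labelled ErbB4 KO lies below every WT library, and in the other genes ErbB4 KO 4 (diamond) lies among the WT libraries.

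Among the subunits of the helicase, Mcm6 differed most. It was at 159.5, 106.3, 152.8 and 137.5 CPM in WT 1 to 4 and at 87.5, 102.0, 82.2 and 97.6 CPM in ErbB4 KO 1 to 4, from 3073 to 5861 counts a library. The groups did not overlap, although WT 2 was only slightly above ErbB4 KO 2, and WT 4, the WT library with Y-linked RNA, was above all libraries labelled ErbB4 KO. The means were 139 ± 23.7 and 92.3 ± 9.08 CPM (SD, n = 4 each), which gave a log2 fold change of -0.59 (SE 0.12, edgeR adjusted p = 0.469). In DESeq2 the adjusted p was 0.00263, in limma-voom 0.332, and without WT 2 in edgeR 0.0477 with a log2 fold change of -0.70. Of all tested genes, 1.48% were lower in every library labelled ErbB4 KO than in every WT library, and Mcm6 was the 1 member among them.

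Mcm2 was at 106.0, 107.5, 126.6 and 119.8 CPM in WT 1 to 4 and at 95.6, 90.3, 95.9 and 117.9 CPM in ErbB4 KO 1 to 4. Only ErbB4 KO 4 reached the WT range, and the log2 fold change was -0.20 (SE 0.089). Mcm3 was at 105.4, 85.2, 102.5 and 90.9 CPM in WT and at 76.4, 78.8, 80.5 and 101.1 CPM in ErbB4 KO 1 to 4, with a log2 fold change of -0.19 (SE 0.098). Mcm5 was at 115.3, 96.8, 112.5 and 105.2 CPM in WT and at 87.9, 87.1, 92.1 and 111.4 CPM in ErbB4 KO, with a log2 fold change of -0.18 (SE 0.086). In both genes ErbB4 KO 4 lay within the WT range, and ErbB4 KO 1 to 3 lay below every WT library. Mcm4 and Mcm7 differed least. Mcm4 was at 83.9, 76.7, 90.8 and 86.1 CPM in WT and at 75.8, 74.1, 76.0 and 90.4 CPM in ErbB4 KO, a log2 fold change of -0.09 (SE 0.077). Mcm7 was at 159.8, 124.1, 147.4 and 143.2 CPM in WT and at 129.4, 129.1, 125.3 and 147.3 CPM in ErbB4 KO, a log2 fold change of -0.11 (SE 0.079). In Mcm7 all 4 libraries labelled ErbB4 KO lay above WT 2, so it was the subunit whose groups overlapped most. The log2 fold change of Mcm7 was -0.06 without WT 1 and -0.18 without WT 2, that of Mcm4 was -0.06 without WT 3 and -0.17 without ErbB4 KO 4, and that of Mcm3 was -0.11 with Xist as a covariate and -0.29 without ErbB4 KO 4.

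Of the loading factors, Cdt1 was at 28.9, 25.8, 26.2 and 26.1 CPM in WT 1 to 4 and at 22.1, 20.4, 21.3 and 26.2 CPM in ErbB4 KO 1 to 4, with a log2 fold change of -0.25 (SE 0.087). Cdc6, the ATPase that works with CDT1, was at 18.1, 14.8, 19.6 and 15.3 CPM in WT and at 14.1, 13.2, 13.8 and 17.7 CPM in ErbB4 KO, with a log2 fold change of -0.21 (SE 0.12) from as few as 458 counts a library. That of Cdc6 was -0.06 with Xist as a covariate and -0.13 without WT 3. In both genes ErbB4 KO 1 to 3 lay below every WT library and ErbB4 KO 4 did not. The inhibitor gene Gmnn was at 28.3, 17.1, 20.9 and 18.9 CPM in WT and at 16.5, 14.1, 16.5 and 20.5 CPM in ErbB4 KO. Its log2 fold change of -0.33 was the least precise (SE 0.15) and rested in large part on WT 1, which stood well above the other WT libraries. Without WT 1 it was -0.17, smaller in size than those of Mcm2 (-0.24), Cdt1 (-0.21), Mcm10 (-0.19) and Cdc6 (-0.18) in the same fit. With Xist as a covariate it was -0.19. The longest transcript of Gmnn is short, at 1127 nucleotides, and the values of WT 1 fell with transcript length. With the length trend removed, the log2 fold change of Gmnn was -0.24. Mcm10 was at 24.5, 20.6, 23.1 and 21.7 CPM in WT and at 18.3, 19.2, 18.6 and 20.7 CPM in ErbB4 KO, with a log2 fold change of -0.23 (SE 0.080). Its groups overlapped by a narrow margin, ErbB4 KO 4 against WT 2. The edgeR adjusted p of the 9 members other than Mcm6 was 0.81 in each case.

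ErbB4 KO 4 thus differed from the other libraries of its label. On the log2 scale, it exceeded the mean of ErbB4 KO 1 to 3 by 0.33 in Mcm2, 0.36 in Mcm3, 0.26 in Mcm4, 0.32 in Mcm5 and 0.20 in Mcm7, and by 0.30 in Cdt1, 0.37 in Cdc6 and 0.39 in Gmnn, where the median of all tested genes was 0.0016. The excess was 0.15 in Mcm10 and 0.11 in Mcm6. Compared with the WT mean, the level of Mcm6 in ErbB4 KO 4 was -0.49 on the log2 scale and that of Mcm10 -0.11, whereas the other 8 members lay between -0.03 and 0.10. ErbB4 KO 4 was picked out by its high values in these genes, so a clearer separation without it follows in part from that choice. The excess was shared by the members, so they are not separate results. Without ErbB4 KO 4, 9 of 10 members, all but Mcm7, were lower in every remaining library labelled ErbB4 KO than in every WT library, as were 4.48% of all tested genes. Also without it, 9 members were lower at an unadjusted p under 0.05 in edgeR, against 3.58% of all genes tested in that fit, and the median log2 fold change of the members was -0.29. Without WT 1 that median was -0.17 and 4 members passed (2.71% of all genes), without WT 2 it was -0.25 and 8 passed (4.55%), without WT 3 it was -0.16 and 3 passed (3.19%), and without ErbB4 KO 2 it was -0.16 and 2 passed (1.17%). Without both WT 1 and ErbB4 KO 4, 9 members passed (5.45% of all genes) and 9 did not overlap (7.97%), and without WT 2 alone 2 did not overlap (4.84%). The log2 fold change of Mcm6 was -0.62 without ErbB4 KO 4 and -0.52 without WT 1.

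**Figure D2:**
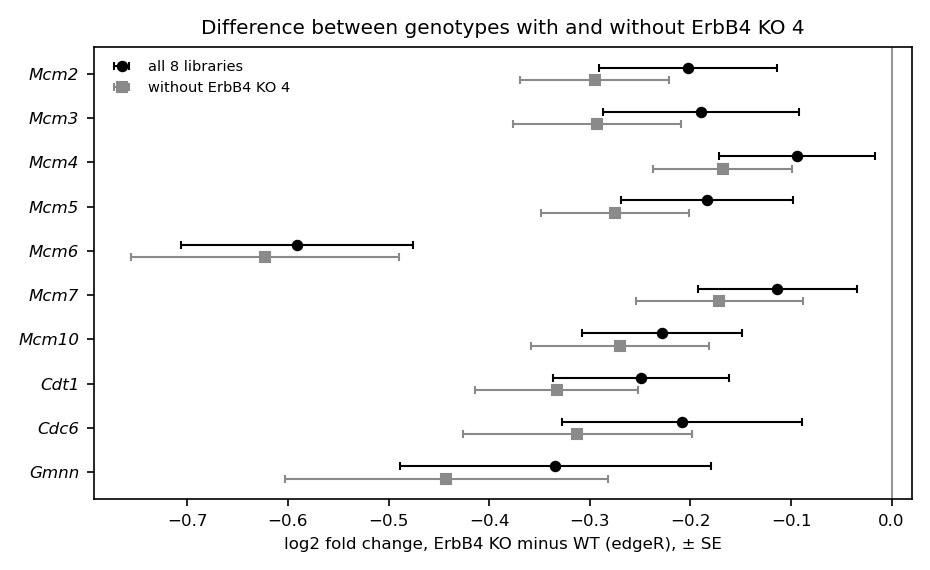
Log2 fold change of each licensing gene, ErbB4 KO minus WT (points, with bars of ± 1 SE from edgeR), from all 8 libraries (black circles) and without ErbB4 KO 4 (grey squares). All points are below 0, Mcm6 is at -0.59 and -0.62, and the other genes lie between -0.33 and -0.09 in all libraries and between -0.44 and -0.17 without ErbB4 KO 4.

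Mcm6 was next set against its own complex, as its log2 CPM minus the mean log2 CPM of Mcm2, Mcm3, Mcm4, Mcm5 and Mcm7 in the same library. This log2 ratio was 0.52, 0.14, 0.42 and 0.36 in WT 1 to 4 and -0.06, 0.18, -0.17 and -0.20 in ErbB4 KO 1 to 4. WT 1, 3 and 4 lay above all libraries labelled ErbB4 KO, and the groups overlapped because WT 2 had a lower ratio than ErbB4 KO 2. The mean ratio was 0.36 ± 0.16 in WT and -0.06 ± 0.17 in ErbB4 KO (SD, n = 4), a difference of -0.42. It was -0.49 without WT 2, -0.50 without ErbB4 KO 2 and -0.37 without ErbB4 KO 4. In ErbB4 KO 4 the mean of the 5 partners, 6.81 on the log2 CPM scale, was as high as in WT 1 at 6.80, and Mcm6 was at 6.61, below its 7.32 in WT 1.

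**Figure D3:**
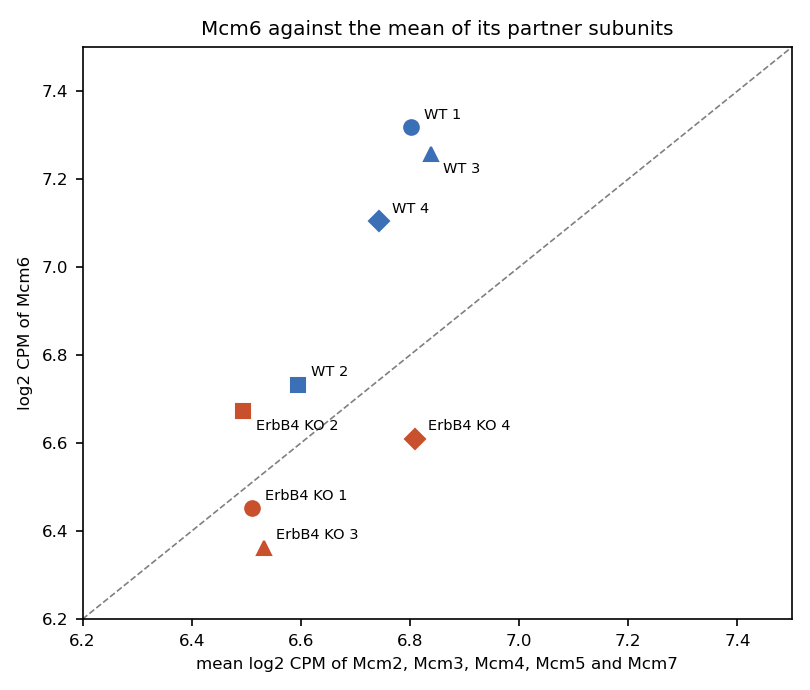
Log2 CPM of Mcm6 (vertical axis) against the mean log2 CPM of Mcm2, Mcm3, Mcm4, Mcm5 and Mcm7 (horizontal axis), 1 point a library, with WT in blue, ErbB4 KO in red and a dashed line of equal values. WT 1, 3 and 4 lie high above the line at ratios of 0.36 to 0.52, WT 2 and ErbB4 KO 2 lie just above it at 0.14 and 0.18, and ErbB4 KO 1, 3 and 4 lie below it.

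The partners kept closer proportions among themselves. With Mcm6 left out, the log2 ratio of each partner to the mean of the other 4 differed between the genotypes by -0.06 in Mcm2, -0.04 in Mcm3, -0.04 in Mcm5, 0.06 in Mcm7 and 0.08 in Mcm4. The ratio of Mcm4 was -0.51 to -0.39 in WT and -0.39 to -0.33 in ErbB4 KO, without overlap, and those of the other 4 overlapped. Of the summed CPM per kb of the 6 subunits, Mcm6 made up 15.8 ± 1.39% in WT and 12.3 ± 1.28% in ErbB4 KO (SD, n = 4). Mcm7 made up 24.1 ± 0.839% and 25.9 ± 0.672%, Mcm4 11.7 ± 0.538% and 12.7 ± 0.201%, and Mcm2, Mcm3 and Mcm5 differed by less than their SDs. The shares add up to a fixed whole, so the higher shares of Mcm7 and Mcm4, whose own levels were lower in ErbB4 KO, cannot be read apart from the lower share of Mcm6.

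Whether the members vary together was examined within the genotypes, as deviations of log2 CPM from the genotype mean, from which the difference between the genotypes is removed. For Mcm6 these deviations are not independent of its choice, since a call of change also depends on the spread within the genotypes. Each member was compared with the mean of the MCM2 to MCM7 subunits other than itself over the 8 libraries, by an exact two-sided test over all permutations within genotype, with Benjamini-Hochberg adjustment over the 10 relations. Pearson's r was 0.93 in Mcm5 (exact permutation p = 0.0208, adjusted 0.0521), and Spearman's rho was 0.88 (exact permutation p = 0.0469, adjusted 0.0781). For Mcm3, r was 0.93 (exact permutation p = 0.0174, adjusted 0.0521) and rho 0.83, for Mcm4 r was 0.91 (exact permutation p = 0.0365, adjusted 0.0608) and rho 0.90, and for Mcm7 r was 0.91 (exact permutation p = 0.0278, adjusted 0.0556) and rho 0.86. Mcm10 and Cdc6, which are not subunits of the ring, were at r of 0.91 in each (exact permutation p = 0.0104 and 0.0122, adjusted 0.0521) and rho of 0.86 and 0.79. Cdt1 and Gmnn were at r of 0.76 in each (exact permutation p = 0.059 and 0.0712, adjusted 0.0843 and 0.089) and rho of 0.57 and 0.74. The lowest values were those of Mcm2 (r = 0.63, rho = 0.43, exact permutation p = 0.122 for r) and Mcm6 (r = 0.62, rho = 0.60, exact permutation p = 0.123 for r), each with an adjusted p of 0.123.

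None of the 10 relations passed an adjusted p of 0.05, and 6 had an unadjusted exact permutation p under it. The share of all tested genes that pass the same unadjusted rule was not counted, so the 6 cannot be read as particular to the members. Without the pair of libraries farthest from the median, ErbB4 KO 4 and WT 2, r remained at 0.76 to 0.87 in Mcm3, Mcm4, Mcm5, Mcm7, Mcm10 and Cdc6, was 0.62 in Cdt1, 0.57 in Gmnn and 0.55 in Mcm6, and fell to 0.27 in Mcm2. Without ErbB4 KO 4 alone, r was 0.40 in Cdt1 and 0.27 in Mcm2, and the adjusted permutation p of every relation was 0.22 or more. In Mcm2, r was 0.92 without WT 1, where the log2 ratio of Mcm2 to the other subunits was -0.19. In Mcm6 r was 0.80 without ErbB4 KO 4 and 0.36 without WT 2. The members share libraries and depth, and the difference between these correlations was not tested.

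Of all 14695 other tested genes, those most like Mcm6 in log2 CPM over the 8 libraries were Dars (r = 0.96), Srsf11 (0.95), Mcm10 (0.95), Hirip3 (0.94) and Ndufaf1 (0.94), given as a description over 8 points that include the difference between the genotypes. Mcm10 had rank 3 in this order, and the other members were at r of 0.62 (Mcm4) to 0.78 (Mcm7), at ranks 381 to 1587. The genes most like the mean of the 5 partners within the genotypes were Id4 (r = 0.99), Nde1 (0.98), Ccna2 (0.98), Ckap2 (0.97) and Cpa4 (0.97). Ccna2 encodes cyclin A2, which acts in S phase and G2, Nde1 and Ckap2 encode proteins of the mitotic spindle, and Id4 encodes a regulator of neural progenitors. In 4 of these 5 genes, ErbB4 KO 4 exceeded the mean of ErbB4 KO 1 to 3 by 0.29 to 0.35 on the log2 scale, and in Cpa4, at 2.24 CPM on average in ErbB4 KO, by 0.55. The genes were picked by deviations in which ErbB4 KO 4 is one of the farthest libraries, so this excess follows from the choice.

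Dars, the gene most like Mcm6, encodes the cytoplasmic aspartyl-tRNA synthetase and is also its nearest neighbour upstream, at chr1:130260285-130313993 on the same strand in mm9. It was at 113.6 ± 10.2 CPM in WT and 97.7 ± 3.48 CPM in ErbB4 KO (SD, n = 4), and the log2 fold change was -0.22 (SE 0.068, edgeR adjusted p = 0.81). Its groups overlapped, and ErbB4 KO 4 differed from the mean of ErbB4 KO 1 to 3 by -0.0037 on the log2 scale, whereas in Mcm6 it was 0.11 above them. On the other side of Mcm6, the lactase gene Lct was at 0.725 ± 0.364 and 0.402 ± 0.196 CPM, too low for a precise value (log2 fold change -0.88, SE 0.42), and Ubxn4 had a log2 fold change of -0.12 (SE 0.051). R3hdm1, Cxcr4 and Thsd7b, farther out, were at 0.06, 0.08 and 0.19 (SE 0.065, 0.067 and 0.099). The edgeR adjusted p of all these neighbours was 0.81 or more, and Mcm6 was the one gene of the 7 whose groups did not overlap.

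**Figure D4:**
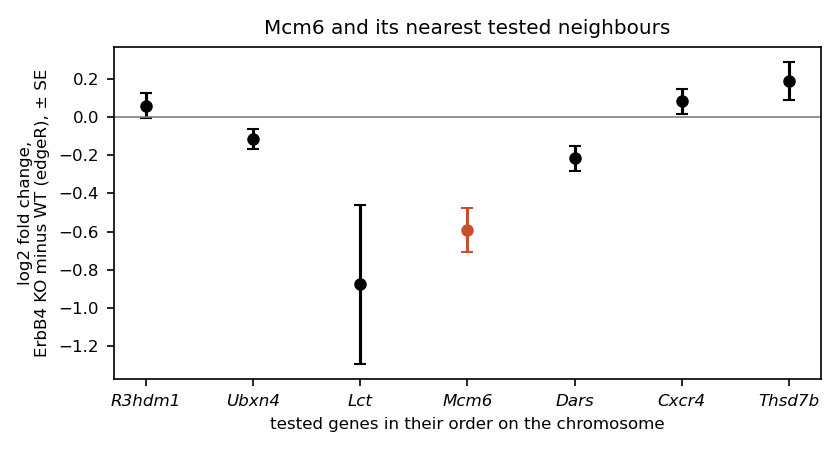
Log2 fold change, ErbB4 KO minus WT (points, with bars of ± 1 SE from edgeR), of Mcm6 (red) and of the 3 nearest tested genes on each side (black), in their order on the chromosome and not to scale in distance. Mcm6 is at -0.59, between Dars at -0.22 and Lct at -0.88, which has the widest bar. Ubxn4, beyond Lct, is at -0.12, and the outer genes are at 0.06 to 0.19.

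The rest of the replication pathway was described by lists written by hand. No gene of these 6 lists passed an adjusted p under 0.05 in edgeR, DESeq2 or limma-voom, and each unadjusted p under 0.05 in edgeR belonged to a gene that was lower in ErbB4 KO. By this unadjusted rule 2.52% of all tested genes were lower, and 50.8% of them had a log2 fold change below 0. Of 19 origin recognition and other licensing genes, 11 were lower and 8 higher, with a median log2 fold change of -0.04, and 1 was lower at an unadjusted p under 0.05. This was Lrwd1, which encodes a partner of the origin recognition complex, at 50.1 ± 2.91 CPM in WT and 43.1 ± 3.18 CPM in ErbB4 KO (log2 fold change -0.22, SE 0.071). Orc1, the subunit of that complex that varies most over the cell cycle, was at 4.99 ± 0.407 and 4.07 ± 0.705 CPM (log2 fold change -0.30, SE 0.14). Of 17 origin firing genes, 16 were lower, with a median of -0.12 and 2 at an unadjusted p under 0.05. These were Gins2, a subunit of the GINS complex that binds the MCM ring, at -0.29 (SE 0.11), and Ccne1, which encodes cyclin E1, at -0.26 (SE 0.11).

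The counts below stand against 50.8% of all tested genes with a log2 fold change below 0, and 2.52% lower at an unadjusted p under 0.05. Of 33 genes of the replication fork, 32 were lower, with a median log2 fold change of -0.14 and 4 at an unadjusted p under 0.05, among them Timeless (-0.20, SE 0.077) of the fork protection complex and Pole2 (-0.22, SE 0.095) of DNA polymerase epsilon. All 11 nucleotide supply genes were lower, with a median of -0.14 and 2 at an unadjusted p under 0.05, Dut (-0.21, SE 0.091), which encodes dUTPase, and Tk1 (-0.25, SE 0.11), thymidine kinase. Of 21 genes of the E2F and RB families, 14 were lower and 7 higher, with a median of -0.05 (18, 3 and -0.13 without ErbB4 KO 4) and 2 at an unadjusted p under 0.05, Ccnd1 for cyclin D1 (-0.22, SE 0.070) and E2f6, an E2F repressor (-0.15, SE 0.065). All 24 genes of G2 and mitosis were lower, with a median of -0.18 and 3 at an unadjusted p under 0.05, among them Cdc20 (-0.28, SE 0.099) and Plk1 (-0.20, SE 0.078). The -0.59 of Mcm6 lay below every gene of the lists.

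**Figure D5:**
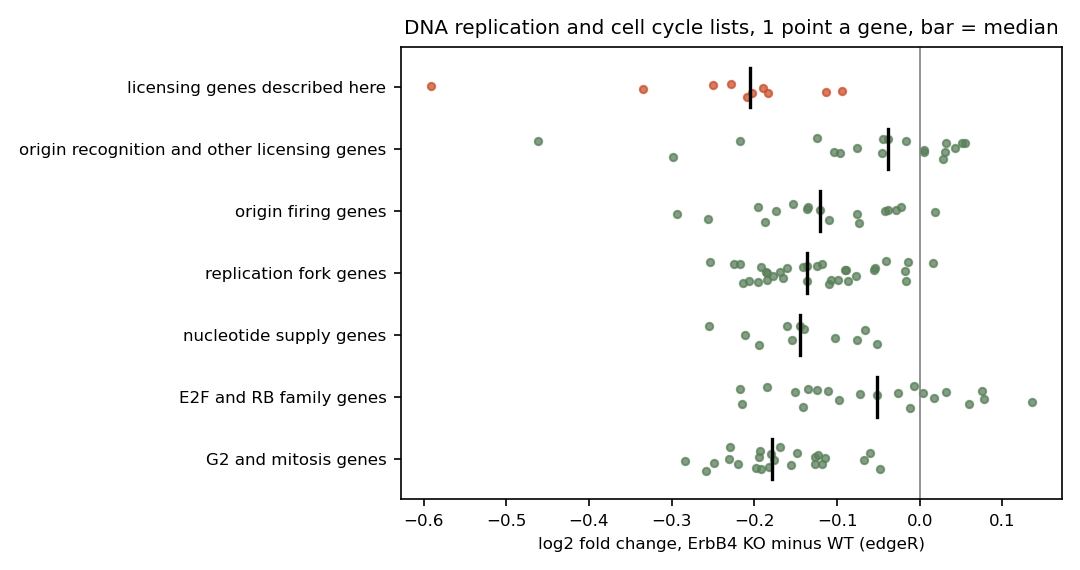
Log2 fold change, ErbB4 KO minus WT (edgeR), of each tested gene of the licensing genes (red) and of 6 other lists of replication and cell cycle genes (green), 1 point a gene, with a vertical bar at the list's median. The medians run from -0.21 in the licensing genes to -0.04 in the origin recognition genes, and the leftmost point is Mcm6 at -0.59.

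ErbB4 KO 4 stood above ErbB4 KO 1 to 3 in these lists too. It exceeded their mean in 24 of 24 genes of G2 and mitosis (median 0.32 on the log2 scale), 32 of 33 fork genes (0.19), 10 of 11 nucleotide supply genes (0.22), 20 of 21 E2F and RB family genes (0.15), 14 of 17 origin firing genes (0.18) and 14 of 19 origin recognition genes (0.07), where 50.5% of all tested genes were above it. Since ErbB4 KO 4 was high in these genes, larger counts of lower genes without it follow in part from leaving it out. Without ErbB4 KO 4, 19 of 24 mitotic genes, 13 of 33 fork genes and 6 of 11 nucleotide supply genes were lower at an unadjusted p under 0.05 in edgeR, as were 4 of 17 origin firing genes, 4 of 21 E2F and RB family genes, 3 of 19 origin recognition genes and 3.58% of all genes tested. Without WT 1, by the same rule, 3 of 24 mitotic genes, 3 of 33 fork genes and 0 of 11 nucleotide supply genes were lower, where 2.71% of all genes were. Without WT 1, 28 of 33 fork genes had a log2 fold change below 0, with a median of -0.09, as had all 24 mitotic genes, with a median of -0.14. Over the 19 alternatives for each list, the median was -0.25 to -0.10 in the mitotic genes, -0.19 to -0.09 in the fork genes, -0.21 to -0.09 in the nucleotide supply genes, -0.18 to -0.06 in the origin firing genes, -0.13 to -0.03 in the E2F and RB family genes and -0.05 to -0.0019 in the origin recognition genes. The value nearest 0 came without WT 3, except in the fork genes, where it came without WT 1, and the value farthest from 0 came without ErbB4 KO 4.

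Markers of the dividing cell types were also mostly lower in the libraries labelled ErbB4 KO. Of 11 radial glia markers, 10 were lower in ErbB4 KO (median log2 fold change -0.12), against 50.8% of all tested genes. At an unadjusted p under 0.05 in edgeR 4 were lower, against 2.52% of all genes. By that rule 6 were lower without ErbB4 KO 4 (3.58% of all genes). Without WT 1, 9 were lower and 2 higher, and 4 were lower (2.71%) and 1 higher by that rule. Without both, 7 were lower (5.45%) and 2 higher by it. The summed level of these markers was 2374 to 2930 CPM in WT and 2359 to 2601 CPM in ErbB4 KO, the highest of the latter in ErbB4 KO 4. Of 6 markers of intermediate progenitors, 5 were lower (median -0.20, and -0.13 without WT 1), at 744.5 to 914.7 CPM in WT and 682.4 to 829 CPM in ErbB4 KO, again highest in ErbB4 KO 4. In this list 3 were lower at an unadjusted p under 0.05, where 2.52% of all tested genes were. Without ErbB4 KO 4, 5 were lower by that rule (3.58% of all genes), and without WT 1, 2 were lower (2.71%) and 1 higher. Neurog1, a transcription factor of neurogenesis, had a log2 fold change of -0.64 (SE 0.19, edgeR adjusted p = 0.81), larger in size than that of Mcm6. The 12 markers of cortical neurons had 4 lower and 8 higher (median 0.02), 2 of the latter at an unadjusted p under 0.05, at 8921 to 9249 and 9111 to 9693 CPM. The share of all tested genes that were higher by that rule was not counted, so these 2 cannot be set against it. The summed levels of the markers of other cells overlapped between the genotypes: interneurons at 570.7 to 741.2 and 558.1 to 741.6 CPM, endothelial cells and pericytes at 187.8 to 202.8 and 188.2 to 204.3, microglia at 52.6 to 61.8 and 53.0 to 63.5, meningeal fibroblasts at 13.1 to 15.7 and 12.5 to 20.2, and red blood cells at 31.7 to 56.1 and 20.7 to 34.9. Of the 4 red blood cell genes tested, 3 were lower in ErbB4 KO (median -0.69), with the embryonic globins Hbb-y at -1.72 (SE 0.45, edgeR adjusted p = 0.81) and Hba-x at -1.23 (SE 0.31, edgeR adjusted p = 0.74). Without ErbB4 KO 4, 1 of these 4 genes passed an adjusted p under 0.05 in edgeR, where 2 of all 14821 tested genes did. Without both WT 1 and ErbB4 KO 4, 2 of the 4 passed, where 27 of all 14782 tested genes did. In each of these 2 fits 2 of the 4 genes were lower and 2 higher. At an unadjusted p under 0.05, 2 were lower and 1 higher in each. The direction of the genes that passed the adjusted p was not counted. The globins Hba-a1, Hba-a2 and Hbb-b2 were at 0 in all libraries. The part of these cell types and of blood, of sex and of the separation of WT 1 in the differences of the licensing genes was not tested.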

How the data were processed

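Dorsal cortex RNA of E15.5 embryos was sequenced by the authors as polyA-selected, unstranded, single-end reads, mapped to mm9 with HISAT and counted with HTSeq. Tool versions, the gene annotation and the counting mode are not given in the sources used here. The deposited files hold raw counts per gene symbol, 1 file a library, without normalization. The authors' deposited DESeq2 table holds their own comparison (fold changes and p-values) and was not used.

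Groups came from the labels. The quasi-likelihood F test of edgeR 4.0.16 (R 4.3.3) was run on the counts after TMM normalization and filterByExpr (10 counts a library, 15 in total), with Benjamini-Hochberg adjustment over 14696 genes and a threshold of 0.05. Values per library are TMM-normalized CPM, with a prior count of 2 on the log2 scale. Depth was 28205703 to 48871480 counts a library, and every member had at least 458 in each. The edgeR model takes account of counting error. Lengths and positions came from GENCODE for NCBIM37, and promoters from RefSeq (GRCm38.p6).

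The members and lists were chosen with earlier results of these data known. Named are the members, Erbb4, Xist and Ddx3y, genes of a pathway list past the threshold and the 2 of lowest unadjusted p in each, the 5 genes most like Mcm6 and the 5 most like its partners, and 3 neighbours on each side of Mcm6; markers and genes overlapping Mcm7 were added. Ticrr of the origin firing list was not matched, and 4 list genes were matched through older symbols.

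Alternatives were DESeq2 1.42.0, limma-voom (limma 3.58.1), other normalizations, filters and thresholds, a prior count of 0.5, a replicate block, Xist as a covariate, removal of the length trend, and leaving out each library; leaving out WT 1 and ErbB4 KO 4 together, and the counts of members and lists by setting, were added after the data were seen. On simulated data for this comparison (14613 genes), edgeR recovered 11 of 67 genes changed 1.2-fold, 61 of 67 changed 1.5-fold and 66 of 66 changed 2-fold, with 10 false calls. The simulated spread was that typical of genes of the same level, without spread particular to a gene, the split by sex or the length trend of WT 1. Only genes with many counts were changed. The rates may therefore be too high for the real libraries, where Mcm6 at a log2 fold change of -0.59 had an edgeR adjusted p of 0.469. Plots used Python 3.11.15 and matplotlib 3.10.9.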

Additional observations from a re-analysis of the deposited data

Results flagged for a closer look

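In groups of 4 libraries, the highest or lowest value was set against the range of its group with Dixon's test, for the 10 licensing genes and the ratio of Mcm6 to its partners in both genotypes, 22 groups in all. A library stood apart from the other 3 of its group in 3 of them, and chance alone gives about 1 in 20 groups. Mcm3 in ErbB4 KO 4 was at 101.1 CPM, where ErbB4 KO 1 to 3 were at 76.4 to 80.5 CPM (gap over range 0.831). Mcm4 in ErbB4 KO 4 was at 90.4 CPM, where ErbB4 KO 1 to 3 were at 74.1 to 76.0 CPM (gap over range 0.886). Cdt1 in WT 1 was at 28.9 CPM, where WT 2 to 4 were at 25.8 to 26.2 CPM (gap over range 0.887). The cause of these gaps was not tested.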

How the results depend on the processing

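All 10 members had a log2 fold change below 0 in each of 19 alternatives. Their median was -0.29 to -0.16, and the difference of the Mcm6 ratio was -0.50 to -0.32 in 13 alternatives. The log2 fold change of Mcm6 was -0.70 to -0.52, with an adjusted p of 0.00263 to 1. The number of genes called, 4 in edgeR with TMM, was 23 in DESeq2, 1 each with relative log expression, upper-quartile factors, the replicate block, Xist as a covariate and a threshold of 0.01, 2 with the length trend removed, 27 without both WT 1 and ErbB4 KO 4, and 1 to 13 with each library left out in turn (13 without WT 4). The number of members called, 0 in edgeR, was 1 in DESeq2 and 0 to 1 with each library left out (1 without WT 2). The number of members lower at an unadjusted p under 0.05, 4 in edgeR, was 1 with Xist as a covariate, 9 without both WT 1 and ErbB4 KO 4 (5.45% of all genes), and 2 to 9 with each library left out (2 without ErbB4 KO 2, 8 without WT 2, 9 without ErbB4 KO 4). The number of members whose groups did not overlap, 1, was 9 without both WT 1 and ErbB4 KO 4 (7.97% of all genes) and 1 to 9 with each library left out (2 without WT 2, 9 without ErbB4 KO 4, against 4.84% and 4.48%). The number of members whose correlation with the other subunits within genotype passed an adjusted p of 0.05 was 0 in all 10 alternatives. Apart from the libraries left out, the cause of these shifts was not tested.

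Libraries of the same number had weakly positive correlations of their deviations, 0.02 to 0.13 over the 4 numbers, and 5 of 8 libraries were closest to their own number, which is a hint from the data and not the design. The numbers were not used as pairs because not every correlation was over 0.1. With the replicate block, 1 gene was called, 6 members and 3.01% of all genes were lower at an unadjusted p under 0.05, and Mcm6 had a log2 fold change of -0.58 (adjusted p = 0.568). Depth limits the values of Lct and Cpa4, which were below 3 CPM.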
